A study of Homo sapiens with 12 samples.

Results

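The zinc finger genes of chromosome 19 were taken as the protein-coding genes of that chromosome in the RefSeq annotation of GRCh38 whose symbols start with ZNF and a number, which gave 250 of 19974 protein-coding genes on chromosomes 1 to 22 and X. They were examined in 12 lists of open chromatin peaks from bulk ATAC-seq, in which a transposase, Tn5, places adapters where DNA is exposed so that such sites can be sequenced. The cells were 3 human acute myeloid leukaemia (AML) lines: MOLM13 and MV4-11, which carry a rearranged MLL1 (KMT2A), and OCI-AML3, which carries mutant NPM1. In each line, cells treated during 16 h with VTP50469 at 500 nM, an inhibitor of the menin-MLL1 contact, were set against control cells of the same line, with 2 libraries a group and 6 groups in all. All cells had been cryopreserved before the assay, each disease type rests on 1 or 2 lines, and the labels do not say whether the 2 libraries of a group came from separate cultures, so that p-values measure only the spread between these libraries, which may be technical.

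Most genes of this family encode C2H2 zinc finger proteins, in which an array of fingers reads DNA, and many also carry a KRAB domain that recruits TRIM28, the scaffold on which the H3K9 methyltransferase SETDB1 and HP1 proteins are assembled. Such proteins are known for silencing transposable elements, and their genes expanded by tandem duplication into dense clusters on chromosome 19. The gene bodies themselves, above all the exon that encodes the fingers, are known to carry H3K9me3. The presence of fingers or of a KRAB domain was not checked here, since the genes were chosen by symbol.

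Of the 250 genes, 236 fell into 10 clusters, in which neighbouring start sites lay within 500 kb of each other and at least 5 genes were joined, and 14 stood outside them. Their median length was 23.3 kb, against 12.7 kb for the 1157 other protein-coding genes of the chromosome. A promoter was the 1 kb on either side of the outermost start site, and a promoter counted as called in a library when a peak of that library overlapped it by at least 1 base. Of the genes, 31 had a promoter that overlapped that of another gene, for which a peak cannot be assigned to either, and 4 were read-through or divergent transcripts. Peak strength was the fold enrichment of reads at the summit over the background that the peak caller estimated around it in that library. The lists held 68670 to 145364 peaks per library, most in MV4-11. In every library the weakest peaks had 4 reads at the summit, so an uncalled promoter was not detectable as open at this depth and need not be closed. Of 8 myeloid marker genes, SPI1, CEBPA and LYZ had a promoter peak in all 12 libraries, ITGAM in 10, CD14 in 9, MPO in 8 (none of them OCI-AML3), CSF1R in 2 and CD33 in 1. Of the other lists, 5 of 6 erythroid markers and 3 of 6 T cell markers had one in none, whereas CD8A of the T cell list had one in all 12, and 4 of 6 B cell and 3 of 4 epithelial markers had one in some libraries. The share of other cells in the cultures was not tested, and in bulk samples fewer cells with an open site and less opening per cell cannot be told apart.

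Zinc finger promoters were called less widely in MOLM13 than in the other lines. A peak was called at 48.4% to 51.2% of the 250 promoters in the 4 MOLM13 libraries, at 71.6% to 75.2% in MV4-11 and at 65.2% to 68.4% in OCI-AML3, with no overlap between the lines. Over all 19630 protein-coding promoters with a strand the shares lay much closer, at 59.7% to 61.1% in MOLM13, 63.5% to 65.3% in MV4-11 and 58.4% to 62.1% in OCI-AML3. The 267 ZNF genes of other chromosomes stood at 70.8% to 73.4% in MOLM13, 75.7% to 77.9% in MV4-11 and 73.8% to 76.8% in OCI-AML3, and the other genes of chromosome 19 had their lowest shares in OCI-AML3, not in MOLM13. Within each line the values of the treated and the control libraries overlapped or met. OCI-AML3 had the list with the fewest peaks of all and still more zinc finger promoters called than any MOLM13 library.

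**Figure D1:**
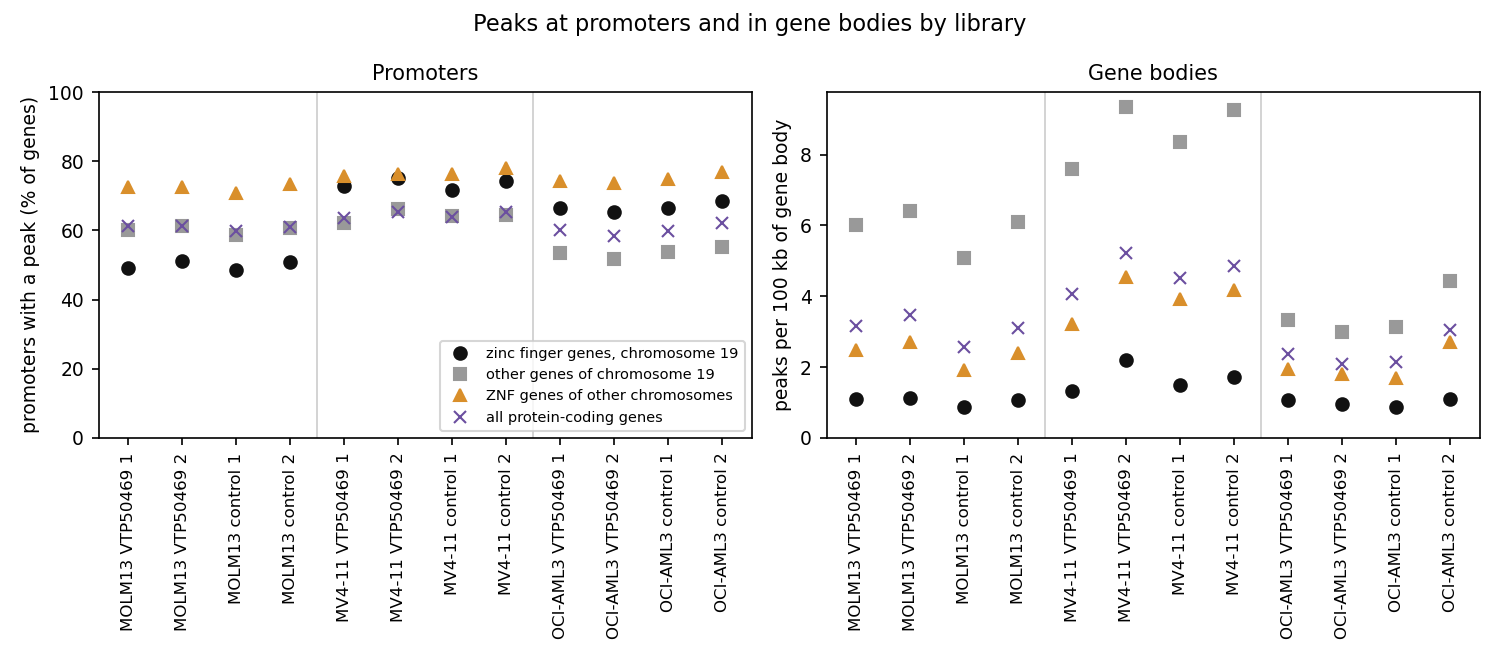
Left, the share of promoters (within 1 kb of the start site) with a peak in each of the 12 libraries, in percent of genes. Right, peaks per 100 kb of gene body outside the promoter. Symbols are 1 library each, for the 250 zinc finger genes of chromosome 19, the 1157 other genes of that chromosome, the 267 ZNF genes of other chromosomes and all protein-coding genes. The zinc finger genes lay at 48.4% to 51.2% in MOLM13 and at 65.2% or more in the other lines, and they had the lowest body density in every library.

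In all 12 libraries together, 104 of the 250 promoters (41.6%) were called in every one, 99 (39.6%) in some and 47 (18.8%) in none, against 51.1%, 24.4% and 24.5% of all promoters. The steadiest promoters, by the lowest fold over the 12 libraries, were those of ZNF548, ZNF57, ZNF584, ZNF627, ZNF226, ZNF430, ZNF146, ZNF77, ZNF429 and ZNF564, whose lowest folds were 13.3 to 11.3. ZNF548, for example, had folds of 16.1 and 16.4 with VTP50469 and 13.3 and 19.4 in control in MOLM13, 19.1 and 19.3 with VTP50469 and 20.6 and 21.0 in control in MV4-11, and 16.3 and 16.2 with VTP50469 and 15.2 and 17.7 in control in OCI-AML3. ZNF146, whose protein consists almost entirely of fingers and has no KRAB domain, ranged from 11.8 to 15.7 over the 12 libraries. Its MV4-11 libraries stood above those of OCI-AML3 and overlapped those of MOLM13.

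**Figure D2:**
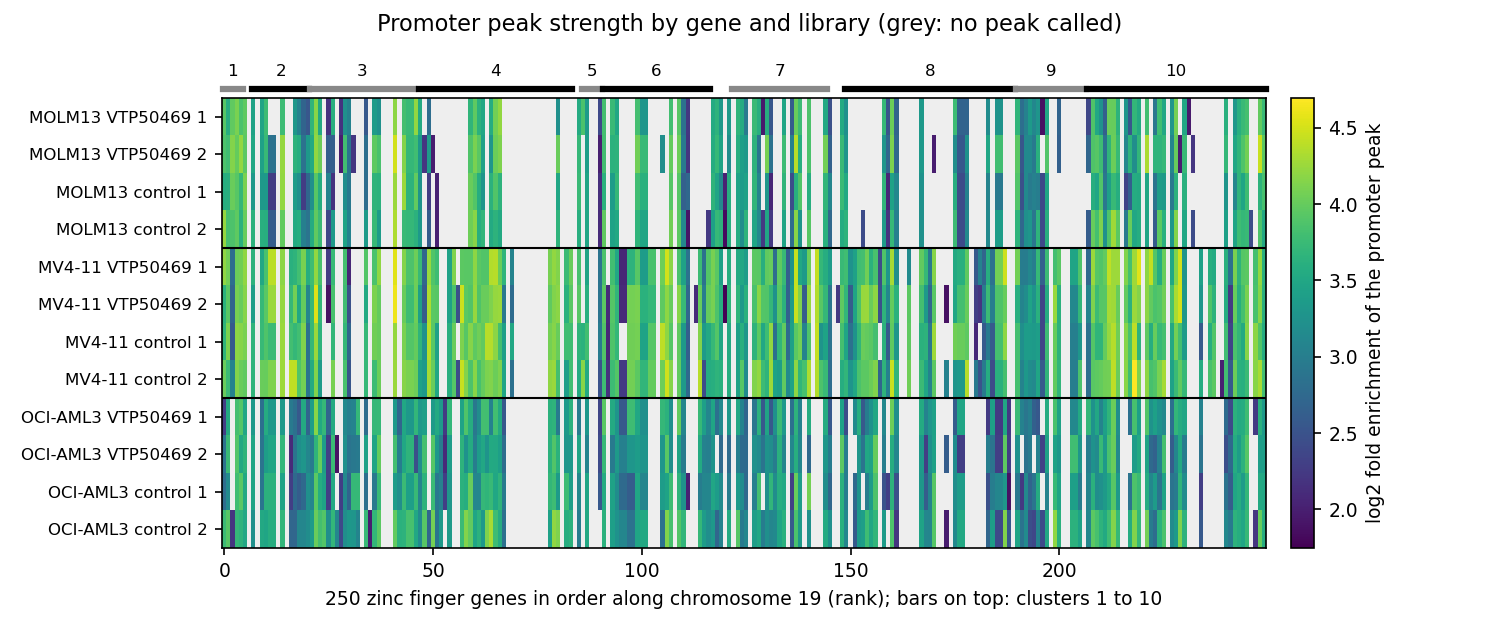
Promoter peak strength (log2 fold enrichment, colour) of the 250 zinc finger genes, in their order along chromosome 19 (horizontal), in the 12 libraries (rows, with VTP50469 above control in each line). Grey marks promoters without a called peak, and the bars on top mark clusters 1 to 10. The grey gaps of MOLM13 are wider than those of MV4-11 and OCI-AML3, and 1 gap in cluster 4 runs through all 12 libraries.

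Much of the difference between lines lay in promoters that were called in every library of one line and in none of another. A further part can lie in the 46 zinc finger promoters called in 1 to 3 of the 4 libraries of a line. Between MOLM13 and MV4-11, 0 of the 250 zinc finger promoters were called in all 4 MOLM13 libraries and in no MV4-11 library, where 0.306% of all promoters were, and 48 (19.2%) were called in none of the MOLM13 and in all 4 MV4-11 libraries, where 1.5% of all promoters were. Between MOLM13 and OCI-AML3 the counts were 2 promoters called in MOLM13 alone (4 without OCI-AML3 control 1 or without control 2), against 0.672% of all promoters, and 39 (15.6%) called in OCI-AML3 alone, against 0.922%. The 48 promoters lay in 45 separate windows and the 39 in 36, because some genes share a promoter. The other genes of chromosome 19 had 14 (1.21%) and 5 (0.432%) such promoters absent from MOLM13, and the ZNF genes of other chromosomes had 10 (3.75%) and 11 (4.12%). Zinc finger genes of chromosome 19, which make up 1.27% of all genes, thus gave 16.3% of the promoters called in MV4-11 and not in MOLM13 and 21.5% of those called in OCI-AML3 and not in MOLM13. Both comparisons share the 4 MOLM13 libraries.

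Classed by all 3 lines at once, 32 zinc finger promoters (12.8%) were called in no MOLM13 library and in all 8 libraries of the other lines. Over the genome 102 promoters had this pattern, so that 31.4% of them belonged to these genes, while 3 belonged to other genes of chromosome 19 and 6 to ZNF genes elsewhere. Where they were called, the 32 promoters had a median fold of 14.4 in MV4-11 and 10.5 in OCI-AML3, beside 14.5 and 10.6 for the 104 promoters called in all 12 libraries, and a median of 35.5 reads over the summit in MV4-11 and 17.8 in OCI-AML3, beside 48.5 and 20.25. By fold they thus stood close to the promoters called everywhere, and by reads lower. In MOLM13 the 104 promoters had a median fold of 11.9 and a median of 31.25 reads, both above those in OCI-AML3 and below those in MV4-11.

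ZNF91, a KRAB zinc finger gene whose product is known to repress SVA elements, had no peak in any of the 4 MOLM13 libraries. In MV4-11 its folds were 18.6 and 17.6 with VTP50469 and 17.9 and 19.1 in control, and in OCI-AML3 they were 12.6 and 14.9 with VTP50469 and 13.7 and 18.4 in control. All 8 values stood above the median fold of all called promoters in the same library. ZNF91 was named for its high fold among the parted promoters, so this follows in part from the choice. ZNF585B showed the same layout, with no peak in MOLM13, folds of 22.5 and 18.3 with VTP50469 and 18.3 and 22.3 in control in MV4-11, and folds of 12.5 and 15.4 with VTP50469 and 11.0 and 17.5 in control in OCI-AML3. ZNF66, which lies in the same cluster as ZNF91, lacked a peak in MOLM13 and had 15.5 and 22.1 with VTP50469 and 17.5 and 21.7 in control in MV4-11, and 11.0 and 12.6 with VTP50469 and 12.3 and 13.6 in control in OCI-AML3. The promoters of ZNF761, ZNF724, ZNF571, ZNF738, ZNF85, ZNF432 and ZNF582 and the shared promoter of ZNF461 and ZNF567 followed, with median folds of 15.4 to 17.2 in MV4-11 and 8.5 to 13.8 in OCI-AML3. ZNF43, whose promoter had the same pattern, stood lower, with medians of 10.9 in MV4-11 and 7.0 in OCI-AML3.

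**Figure D3:**
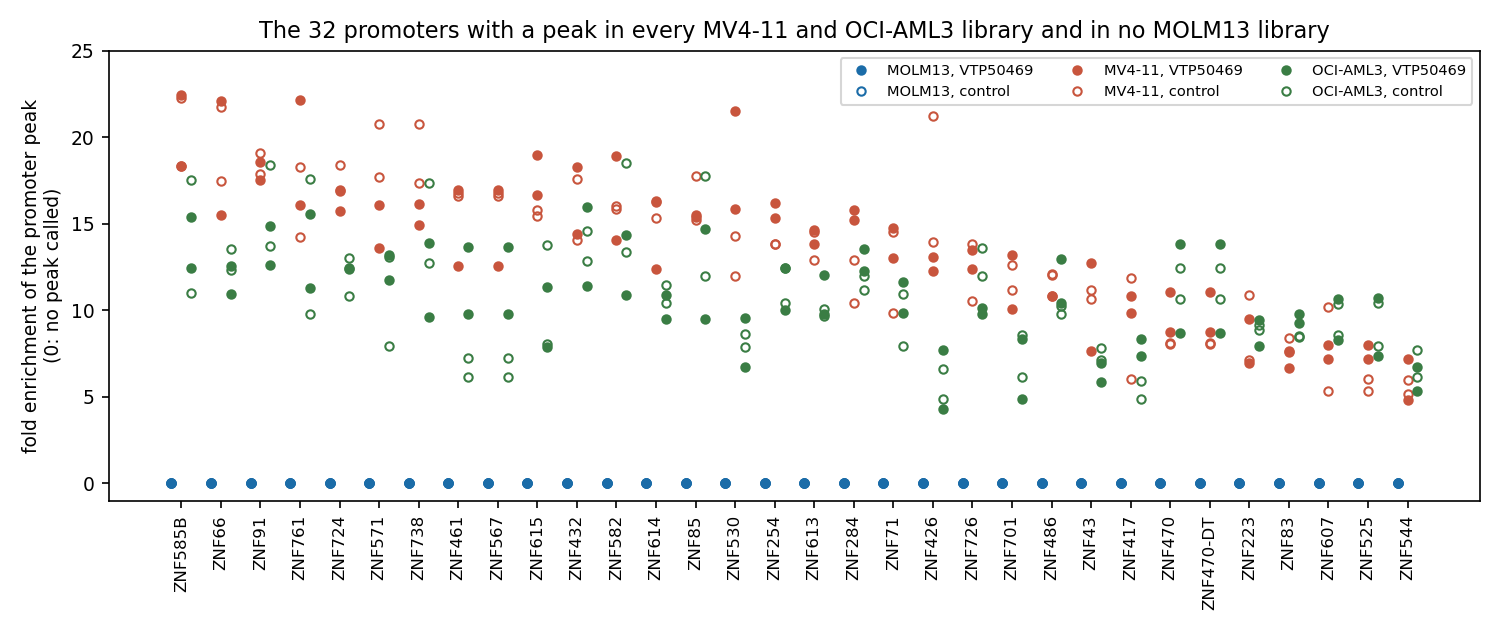
Fold enrichment of the promoter peak (vertical) of the 32 zinc finger genes called in no MOLM13 library and in all 8 libraries of MV4-11 and OCI-AML3, ordered by the median in MV4-11. Filled symbols are VTP50469 libraries and open symbols control libraries, 1 symbol a library, and 0 stands for no peak, where the 4 MOLM13 symbols coincide. Treated and control symbols of a line intermix, and the medians of these genes were 14.4 in MV4-11 and 10.5 in OCI-AML3.

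To count promoters without a limit on where they were called, all 14829 promoters called in at least 1 library were ranked by fold within each library, the promoters without a peak sharing the lowest rank, and the normal scores of the ranks were compared between lines with limma. This fit was added after the counts had been seen, and it gives uncalled promoters a common value, which makes their spread look small. Relative to MV4-11, 1 zinc finger promoter was higher in MOLM13, against 1.06% of all promoters, and 67 of the 203 tested were lower, against 2.4%. Relative to OCI-AML3, 8 were higher in MOLM13, against 2.16%, and 50 were lower, against 2.87%. The promoters chosen above for their calls are among these, and the fit is no separate evidence for them.

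Between MV4-11 and OCI-AML3 fewer promoters parted. In MV4-11 alone 16 (6.4%) were called, against 1.77% of all promoters, and in OCI-AML3 alone 6 (2.4%), against 0.504%. With the same number of peaks taken from each library the counts were 14 and 9, and the shares over all promoters became 0.851% and 1.25%. In the fit over all promoters 46 zinc finger promoters were higher in MV4-11, against 5% of all promoters, and 14 were lower, against 4.36%. Of the 16 promoters, 14 also lacked a peak in every MOLM13 library, and ZNF285 was the strongest, with folds of 21.4 and 20.4 with VTP50469 and 21.4 and 20.5 in control in MV4-11 and no peak in any OCI-AML3 library. The promoters of ZNF737, ZNF528, ZNF229, ZNF606 and ZNF256 and the promoter that ZNF568 and ZNF829 share were also called in MV4-11 alone, with median folds of 13.2 to 15.7. The remaining 2, ZNF160 and ZNF772, were the promoters called in MOLM13 and not in OCI-AML3. ZNF772 had folds of 9.8 and 8.6 with VTP50469 and 5.1 and 7.6 in control in MOLM13, 17.6 and 15.9 with VTP50469 and 17.8 and 18 in control in MV4-11, and no peak in OCI-AML3.

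The 6 promoters called in OCI-AML3 and in no MV4-11 library were those of ZNF441, ZNF878, ZNF682, ZNF433, ZNF709 and ZNF813. ZNF441 had no peak in the 4 MV4-11 libraries, nor in the 4 MOLM13 libraries, and folds of 13.2 and 10.4 with VTP50469 and 10.9 and 14.9 in control in OCI-AML3. ZNF813 was the weakest, with 4.8 and 4.9 with VTP50469 and 3.7 and 5.9 in control, close to the smallest peaks that were called. ZNF441, ZNF878, ZNF433 and ZNF709 lie in the same cluster, cluster 3 (11.5 to 12.6 Mb), the single cluster in which MV4-11 had fewer promoters called in all 4 libraries than MOLM13, 13 of 25 against 14, while OCI-AML3 had 18.

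The gap between MOLM13 and the other lines was found in 7 of the 10 clusters, in which MOLM13 had fewer promoters called in all 4 libraries than either other line. In cluster 4 (19.7 to 24.0 Mb, 37 genes), 10 promoters were called in all 4 libraries of MOLM13, 24 in those of MV4-11 and 22 in those of OCI-AML3. In cluster 8 (51.6 to 53.5 Mb, 41 genes) the counts were 13, 28 and 21, and in cluster 6 (36.2 to 37.8 Mb, 26 genes) 10, 19 and 18. Cluster 9 (17 genes), with 7, 13 and 10, showed the same order. Cluster 1 (2.8 to 2.9 Mb), which holds ZNF554, ZNF556, ZNF57 and ZNF77, had all 5 promoters called in all libraries of MOLM13 and of MV4-11 and 4 of 5 in OCI-AML3. Of the 14 genes outside clusters, 0 were called in all libraries of MV4-11 or of OCI-AML3 and in none of MOLM13. The 86 other protein-coding genes that lie inside the clusters were called in all 4 libraries in 24.4% of cases for MOLM13, 31.4% for MV4-11 and 26.7% for OCI-AML3, and 3 of them (3.49%) were called in MV4-11 and not in MOLM13, beside 48 of the 236 clustered zinc finger genes (20.3%). The difference between these shares was not tested.

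**Figure D4:**
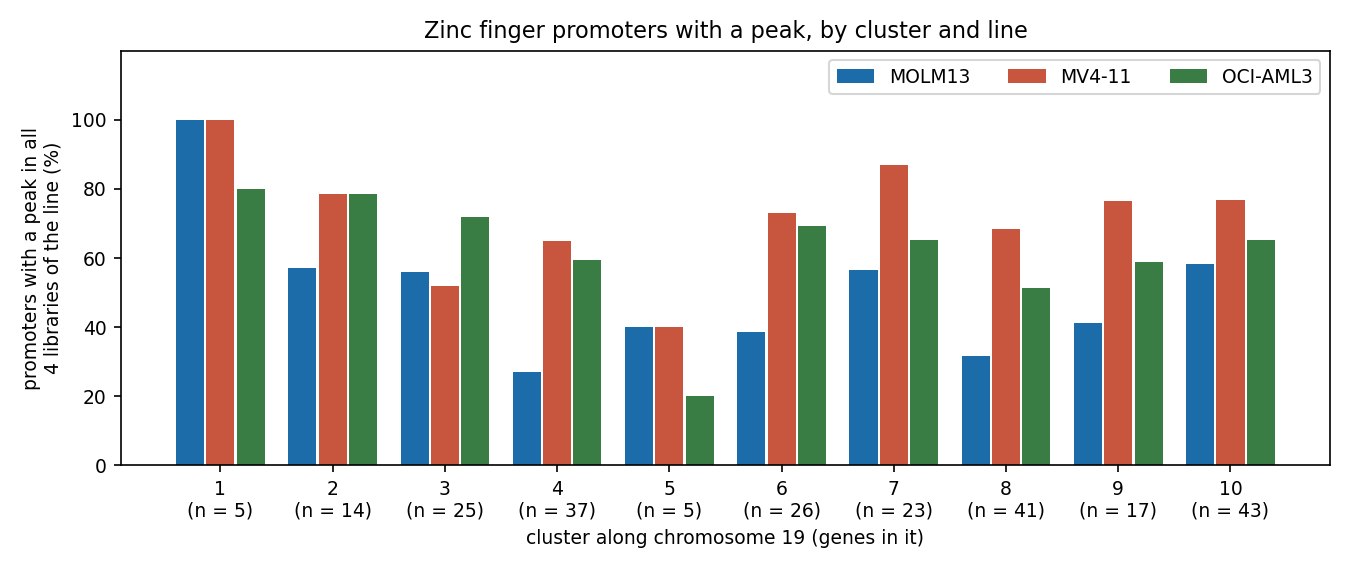
Share of zinc finger promoters with a peak in all 4 libraries of a line (vertical, percent), for the 10 clusters in their order along chromosome 19, with the number of genes under each. Bars are MOLM13, MV4-11 and OCI-AML3. In cluster 4 the counts behind the bars were 10, 24 and 22 of 37 genes, and in cluster 8 they were 13, 28 and 21 of 41.

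Cluster 4 also held the longest stretch without any promoter peak. The 8 neighbours from ZNF676 to ZNF730 (start sites at chr19:22260304-23075211, GRCh38), which include ZNF729, ZNF98, ZNF492, ZNF99, ZNF723 and ZNF728, had no promoter peak in any of the 12 libraries, nor had ZNF208 before them. Of the 10 genes from ZNF208 to ZNF730 these make 9, and the tenth, ZNF257, was called in the 4 MV4-11 libraries alone. ZNF681 of the same cluster and, elsewhere, ZNF560, ZNF177 and ZNF844 were also among the promoters without a peak. For 16 of the 47 such genes, among them ZNF358, ZNF558, ZNF799 and ZNF536, a peak was called at another annotated start site of the gene.

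Many genes of cluster 4 are close relatives, and their promoter sequences are shown because similar promoters were called in different lines. The 250 bases before the start site are printed for 7 of them, 5′ to 3′ on the strand of the gene, from RefSeq on GRCh38.p14, with the letters CCGGAAG or their reverse complement CTTCCGG in capitals, the core that ETS family factors bind. ZNF91 (chr19:23395472-23395721, minus strand) and ZNF66 (chr19:20776054-20776303, plus strand) were called in no MOLM13 library and in all 8 others. ZNF737 (chr19:20565782-20566031, minus strand) was called in MV4-11 alone and ZNF682 (chr19:20039506-20039755, minus strand) in OCI-AML3 alone. ZNF208 (chr19:22010944-22011193, minus strand) was called in no library, and ZNF431 (chr19:21141790-21142039, plus strand) and ZNF714 (chr19:21081953-21082202, plus strand) in all 12.
ZNF91: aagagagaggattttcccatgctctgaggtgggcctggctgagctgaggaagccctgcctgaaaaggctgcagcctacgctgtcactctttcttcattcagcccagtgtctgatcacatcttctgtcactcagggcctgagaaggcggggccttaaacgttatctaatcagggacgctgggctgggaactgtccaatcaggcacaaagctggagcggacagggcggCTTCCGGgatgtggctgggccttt
ZNF66: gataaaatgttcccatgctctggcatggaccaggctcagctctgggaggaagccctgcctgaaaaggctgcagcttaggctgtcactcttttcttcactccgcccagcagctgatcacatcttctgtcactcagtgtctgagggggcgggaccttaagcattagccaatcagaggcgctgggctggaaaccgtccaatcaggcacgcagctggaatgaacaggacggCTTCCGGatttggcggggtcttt
ZNF737: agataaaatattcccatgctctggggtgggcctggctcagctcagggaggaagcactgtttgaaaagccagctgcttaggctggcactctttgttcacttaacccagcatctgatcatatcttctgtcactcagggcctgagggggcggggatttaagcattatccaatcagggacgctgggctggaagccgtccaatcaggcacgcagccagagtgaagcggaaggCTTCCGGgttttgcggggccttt
ZNF682: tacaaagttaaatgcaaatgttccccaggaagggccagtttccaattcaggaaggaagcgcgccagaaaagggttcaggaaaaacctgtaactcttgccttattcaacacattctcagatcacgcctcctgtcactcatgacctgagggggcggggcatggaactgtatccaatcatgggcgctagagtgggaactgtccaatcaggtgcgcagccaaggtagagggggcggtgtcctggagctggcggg
ZNF208: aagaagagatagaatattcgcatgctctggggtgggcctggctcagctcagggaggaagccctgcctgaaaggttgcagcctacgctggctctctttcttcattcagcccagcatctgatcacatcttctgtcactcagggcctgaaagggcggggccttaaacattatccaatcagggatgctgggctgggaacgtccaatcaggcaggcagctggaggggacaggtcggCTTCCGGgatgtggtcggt
ZNF431: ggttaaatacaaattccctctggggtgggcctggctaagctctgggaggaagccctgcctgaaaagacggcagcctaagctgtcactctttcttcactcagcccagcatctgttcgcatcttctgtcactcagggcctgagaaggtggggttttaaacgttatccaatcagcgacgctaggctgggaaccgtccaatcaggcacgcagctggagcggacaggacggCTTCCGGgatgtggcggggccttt
ZNF714: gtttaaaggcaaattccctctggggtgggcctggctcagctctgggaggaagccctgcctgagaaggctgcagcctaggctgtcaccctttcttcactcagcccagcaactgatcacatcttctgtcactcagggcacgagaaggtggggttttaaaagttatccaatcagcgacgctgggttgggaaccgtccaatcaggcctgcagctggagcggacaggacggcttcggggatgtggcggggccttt
In a global alignment of these 250 bases with those of ZNF91, the identity was 86.4% for ZNF208, 84.7% for ZNF431, 83.1% for ZNF714, 81.2% for ZNF66, 79.5% for ZNF737 and 65.5% for ZNF682. Of the promoters compared, that of ZNF208 was nearest to ZNF91 and was called in none of the 12 libraries. ZNF726, at 85.1%, and ZNF486, at 84.3%, had the same calls as ZNF91, and ZNF431, between them, was called in all 12. The capitals stand close to the start site, at the right end of the sequence, in ZNF91, ZNF66, ZNF737, ZNF208 and ZNF431, and neither ZNF714, called in all 12 libraries, nor ZNF682 holds these letters in the window printed. Of the 36-base words of the 300-base promoters, 3.4% for ZNF91, 4.9% for ZNF66 and 10.2% for ZNF208 occur in the RefSeq promoter of another gene. For 6 of 182 zinc finger promoters (ZNF8, ZNF625, ZNF540, ZNF816, ZNF71 and ZNF765) it was 95.8% or more. The rest of the genome was not searched for these words, how reads that map to several places were treated is not given in the sources used here, and their part in the calls was not tested.

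Over the family, the outermost start of 182 genes was found in the table of RefSeq promoters, which run from 250 bases before to 50 after the start. Their promoters held a median of 20 CpG dinucleotides, against 22 for all 13793 protein-coding promoters matched in this way. The median CpG number was 20.5 for the 38 matched genes called in MV4-11 and not in MOLM13, 22 for the 89 called in all 12 libraries and 16 for the 16 called in none. These were 89 of the 104 genes called in all 12 libraries but 16 of the 47 called in none, so the matched 16 may not stand for the rest. The letters CCGGAAG, on either strand, were in 45.6% of the zinc finger promoters (83 of 182) and in 14.6% of all promoters. Among promoters called in all 12 libraries the shares were 44.9% (40 of 89) and 22.7%, and among the zinc finger promoters called in MV4-11 and not in MOLM13 the share was 65.8% (25 of 38). The letters CCAAT, on either strand, were in 53.3% of the zinc finger promoters and in 37.1% of all promoters, with 36.8% (14 of 38) among those called in MV4-11 and not in MOLM13. The GC box letters GGGCGG were in 65.4% of the zinc finger promoters and in 58.5% of all. Among promoters called in all 12 libraries the order turned, with 69.7% (62 of 89) against 73.6%. Among the zinc finger promoters called in MV4-11 and not in MOLM13 the share was 50% (19 of 38). Letters of the sites named YY1, NRF1 and CRE were also searched. They were in 8.8%, 3.3% and 3.8% of the zinc finger promoters and in 6.7%, 1.8% and 2.7% of all. In the set of 38 the shares were 15.8% (6), 5.3% (2) and 2.6% (1). A match is a run of letters and not a bound site, and these shares carry no test.

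The strength of regions called in both lines gives a second view, limited to sites with a peak in each. Overlapping peaks of the 8 libraries of a pair of lines were merged, and regions called in all 8 were compared with limma on the normal score of the rank of the fold within its library. Between MOLM13 and MV4-11, 1 of the 150 zinc finger regions was higher in MOLM13, against 1.78% of 37158 regions, and 12 were lower, against 3.47%. The median difference of the 150 regions, MOLM13 minus MV4-11 in normal score, was 0.064, beside 0.061 over all regions. The promoter of ZNF556 was the one higher in MOLM13, with folds of 15.7 and 17.7 with VTP50469 and 16.2 and 14.6 in control, against 4.9 and 6.1 with VTP50469 and 3.7 and 6.3 in control in MV4-11, a difference of 3.67 ± 0.35 (SE) in normal score (adjusted p = 0.0012, limma). The promoter of ZNF506 was lower in MOLM13, with 7.0 and 10.3 with VTP50469 and 4.9 and 6.1 in control, against 18.9 and 20.1 with VTP50469 and 20.8 and 19.7 in control in MV4-11, a difference of -2.75 ± 0.29 (adjusted p = 0.0012, limma). Of the 12, the 10 with the lowest p also took in the promoters of ZNF222, ZNF562, ZNF772, ZNF304, ZNF160, ZNF773 and ZNF816 and regions inside ZNF83 and the read-through gene ZNF816-ZNF321P, with differences of -1.55 to -2.71 and adjusted p of 0.0012 to 0.023 by limma. Without MV4-11 VTP50469 replicate 2, 1 region was called higher and 7 lower.

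Between MOLM13 and OCI-AML3, 6 of 119 zinc finger regions were higher in MOLM13, against 3.02% of 23946 regions, and 3 were lower, against 3.64%. The median difference of the 119 regions, MOLM13 minus OCI-AML3 in normal score, was 0.313, beside 0.002 over all regions. The promoters of ZNF714, ZNF443, ZNF554, ZNF776 and ZNF274 and a region inside ZNF114 were higher in MOLM13, ZNF714 with folds of 15.6 and 17.1 with VTP50469 and 14.9 and 18 in control, against 7.6 and 8.0 with VTP50469 and 8.6 and 11.2 in control in OCI-AML3 (difference 1.82 ± 0.29, adjusted p = 0.0037, limma). The promoters of ZNF222 and ZNF304 and a region inside ZNF83 were lower in MOLM13. Without each library in turn the 9 calls became 2 to 6, and 0 regions were called lower without MOLM13 control 1 or without MOLM13 VTP50469 replicate 2. Between MV4-11 and OCI-AML3, 12 of 169 regions were higher in MV4-11, against 6.92% of 27230 regions, and 7 were lower, against 5.98%. The median difference of the 169 regions, MV4-11 minus OCI-AML3, was 0.282, beside -0.049 over all regions. The 10 with the lowest p of those higher in MV4-11 were ZNF714, ZNF562, ZNF426, ZNF121, ZNF266, ZNF443, ZNF530 and ZNF274 at the promoter and ZNF43 and ZNF799 inside the gene, whereas ZNF14, ZNF763, ZNF525, ZNF83, ZNF264 and the shared promoter of ZNF470 and its divergent transcript, and a region inside ZNF254, were lower. ZNF274, whose product is known to bind the 3′ ends of zinc finger genes and to recruit SETDB1 there, had folds of 12.2 and 12 with VTP50469 and 13.8 and 13.9 in control in MV4-11, against 6.9 and 5.5 with VTP50469 and 7.3 and 8.7 in control in OCI-AML3 (difference 1.0 ± 0.27, adjusted p = 0.032, limma). Without each MV4-11 library in turn the 19 calls became 6 to 9, and without OCI-AML3 control 2 they became 11. These counts also depended on the scale. On the log2 fold centred on the library median, 7 of the 169 regions were higher in MV4-11 and 9 lower. Of all 27230 regions 1772 were higher and 2504 lower on that scale. Ranked by recovered summit reads, 41 of the 119 regions were higher in MOLM13 than in OCI-AML3, against 2615 of all 23940 regions. On the same scale 45 of the 169 were higher in MV4-11 than in OCI-AML3, against 3034 of all 27224. The OCI-AML3 libraries had the fewest reads over zinc finger promoters (medians of 17 to 19 reads, against 24 to 31 in MOLM13 and 39 to 44.5 in MV4-11).

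Inside the gene bodies called peaks were sparse in every library. The zinc finger genes held 0.862 to 2.19 peaks per 100 kb of body outside the promoter, against 3.0 to 9.34 for the other genes of chromosome 19, 1.68 to 4.55 for ZNF genes of other chromosomes and 2.1 to 5.23 for all protein-coding genes. In all 12 libraries the zinc finger genes were the lowest, at 0.173 to 0.325 of the density of the other genes of the chromosome. Summits in zinc finger loci were counted once for each gene they fell in, so that a summit in overlapping genes counts more than once. Of these counts, 58.7% to 76.3% lay within 1 kb of the start site. A further 2.39% to 7.69% lay in the end of the gene farthest from the start (the last 20% of its length), where the finger exon usually lies. With the same number of peaks in each library the density was 0.702 to 1.05 peaks per 100 kb, against 3.0 to 4.58 for the other genes of the chromosome. How uniquely reads can be placed in the bodies of these related genes was not examined, so a low density of peaks need not be a low density of open sites.

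VTP50469 changed no zinc finger region past the threshold. In MOLM13, 156 zinc finger regions were called in all 4 libraries and 0 were called different between VTP50469 and control, as were 0% of the 41518 regions tested. In MV4-11 it was 0 of 243, with 0% of 70124 regions, and in OCI-AML3 0 of 191, with 0% of 30982. Over the 3 lines it was 0 of 117, with 0% of 23338. The lowest adjusted p of any region in the genome was 0.88 in MOLM13, 0.74 in MV4-11, 0.82 in OCI-AML3 and 0.69 over the 3 lines, all by limma. At an unadjusted p under 0.05 by limma, 2 zinc finger regions were higher and 3 lower with VTP50469 in MOLM13 (1.28% and 1.92%, against 2.96% and 2.64% of all regions). In MV4-11 it was 7 and 8 (2.88% and 3.29%, against 2.99% and 3.59%), in OCI-AML3 5 and 2 (2.62% and 1.05%, against 2.97% and 2.83%), and over the 3 lines 2 and 5 (1.71% and 4.27%, against 3.09% and 3.31%). The median difference of the zinc finger regions, VTP50469 minus control in normal score, was -0.06 for MOLM13, -0.01 for MV4-11 and 0.06 for OCI-AML3, beside -0.01, 0.02 and 0.00 over all regions in the same order. The lowest p of any zinc finger region in MV4-11 belonged to a site inside ZNF536, a neuronal zinc finger gene without a KRAB domain, with folds of 3.6 and 4.3 with VTP50469 against 11.8 and 8.9 in control (difference -2.45 ± 0.45 SE, adjusted p = 0.74, limma). The promoter of ZNF586 in MV4-11 had 22.5 and 22.7 with VTP50469 against 13.9 and 15.7 in control (1.49 ± 0.39, adjusted p = 0.74, limma). In OCI-AML3 the shared promoter of ZNF461 and ZNF567 had 13.7 and 9.8 with VTP50469 against 6.1 and 7.3 in control (1.64 ± 0.50, adjusted p = 0.82, limma), and in MOLM13 the promoter of ZNF543 had 9.5 and 13.7 with VTP50469 against 14.9 and 17.4 in control (-1.37 ± 0.45, adjusted p = 0.88, limma). In these 4 cases, with 2 libraries a group, the 2 treated values did not overlap the 2 control values. They were named for the lowest p of their fit and direction, so this separation follows from the choice. None passed the adjustment. With 2 libraries a group, a region that did not pass need not be unchanged.

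**Figure D5:**
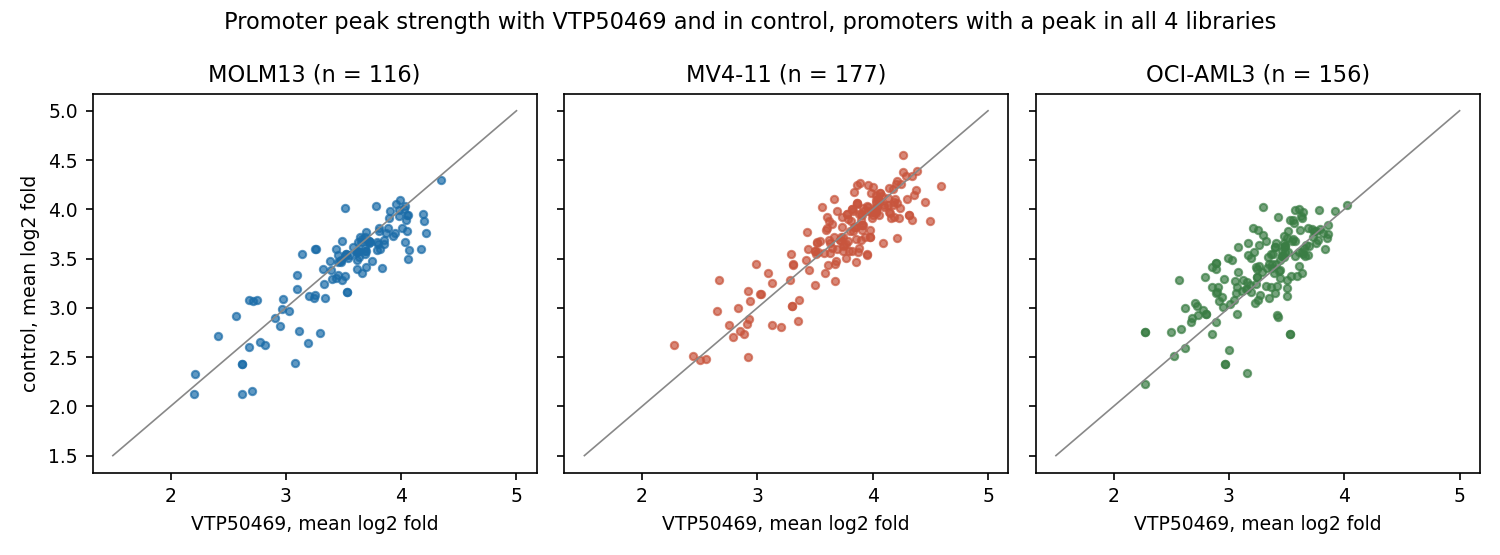
Mean log2 fold enrichment of the promoter peak in the 2 VTP50469 libraries (horizontal) and in the 2 control libraries (vertical) for zinc finger promoters with a peak in all 4 libraries of MOLM13 (116 genes), MV4-11 (177) and OCI-AML3 (156). Each point is 1 gene and the line marks equal values. The points lie along the line in each cell line, and 0 regions passed the adjusted threshold.

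Peaks that appeared or went missing with VTP50469 were few. Lost regions are those that both control libraries and neither treated library held, and gained regions are the reverse. In MOLM13, 6 of 294 zinc finger regions were gained, against 3.22% of all regions, and 2 were lost, against 1.3%. In MV4-11, 4 of 430 were gained, against 1.92%, and 5 lost, against 2.75%, and in OCI-AML3 2 of 333 were gained, against 1.32%, and 5 lost, against 2.57%. Each of these shares was below that of all regions. With peaks of a −log10 q of at least 5 this no longer held in MOLM13, where 9 of 190 were gained (4.74%, against 4.55% of all) and 3 lost (1.58%, against 1.34%). The regions rested on 5 to 17 summit reads per library. Gained regions lay in the promoter window of ZNF69, ZNF160, ZNF865 and ZNF583 in MOLM13, of ZNF491 and of ZNF529 and ZNF382 together in MV4-11, and of ZNF221 and ZNF324 in OCI-AML3, and inside ZNF682 and ZNF577 in MOLM13 and ZNF541 and ZNF473 in MV4-11. Lost regions lay in the promoter window of ZNF93 in MOLM13, ZNF443 in MV4-11 and ZNF784 and ZNF8 in OCI-AML3, and inside ZNF799 in MOLM13, ZNF816-ZNF321P, ZNF787, ZNF507 and ZNF865 in MV4-11, and ZNF254, ZNF584 and ZNF114 in OCI-AML3. The ZNF160 promoter had another peak in all 4 MOLM13 libraries.

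Taking the whole promoter, ZNF69 and ZNF583 gained their peak in MOLM13 (2 of 250, against 0.693% of all promoters) and ZNF93 and ZNF574 lost it (against 0.408%). In MV4-11 ZNF491 gained it (against 0.301%) and ZNF302 lost it (against 0.479%), and in OCI-AML3 0 promoters gained it (against 0.255%) and ZNF69 lost it (against 0.841%). ZNF93, whose product is known to repress L1 elements, had no peak with VTP50469 and folds of 4.1 and 4.0 in control in MOLM13, from 5 summit reads each, close to the smallest call. In MV4-11 its folds were 13.7 and 15.2 with VTP50469 and 10.8 and 11.4 in control. ZNF583 in MOLM13 had 6.5 and 6.3 with VTP50469 and no peak in control, from 9 reads each. ZNF302 in MV4-11 had folds of 12.5 and 18 in control, but the summit of that peak lay outside the window in each of the 3 libraries that touched it, so that it reached the promoter by its edge.

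Of 25 genes listed for their part in silencing by KRAB zinc finger proteins, 21 had a promoter peak in all 12 libraries, beside 51.1% of all promoters. Among them were TRIM28, SETDB1, ATF7IP, CBX1, CBX3, CBX5, TASOR, MPHOSPH8 and MORC2. Only the outermost start site was read for these genes, so an uncalled one may have a peak at another start. The exceptions were EHMT2, called in 11 libraries, ZFP57, a KRAB zinc finger gene of chromosome 6 that guards imprinted loci and was called in all 4 MOLM13 libraries and in none of the others, CHD3 and UHRF1, called in 3 and 1 MV4-11 libraries. No other promoter of this list parted the lines.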

How the data were processed

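MOLM13, MV4-11 and OCI-AML3 cells that had been cryopreserved were profiled by bulk ATAC-seq, as control cells and with VTP50469 (500 nM, 16 h), in 12 libraries, 2 for each group. The tools that the authors list are, per the labels, MACS2 2.1.0, Bowtie 1.1.2, Trimmomatic 0.33, bcl2fastq 2.17 and deepTools, and the build is hg38. The methods of the study name another aligner, and handling of duplicates, read shift and reads with several positions is not given in the sources used here. Peaks had been called by the authors in each library separately, at a q of 0.05. Of the deposited columns, the ratio is a fold enrichment at the summit over local background, 2 columns hold −log10 values of its p and q, the score is a rounded multiple of that q column, and the last is the summit position. The authors had normalised none of these between libraries. Sequencing totals were not used here, and 956 of 1200433 peaks lay outside chromosomes 1 to 22 and X.

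Summit reads were recovered as the whole number that fitted the fold and the −log10 p within 0.001, which succeeded for 99.991% or more of the peaks in each library. Gene positions came from RefSeq on GRCh38.p14, with the strand from RefSeq for 219 members and from GENCODE for 31, and 344 genes without a strand were left out of promoter counts. Strength was tested with limma 3.58.1 in R 4.3.3 (moderated, two-sided, Benjamini-Hochberg over all regions, threshold 0.05), with other steps in Python 3.11.15. The fits were also run on simulated data, normal noise of equal spread with planted shifts. How small a shift the fits could detect in the real libraries is not given here. The members and lists were chosen with earlier results of these data known. Genes were named by rule: the 10 highest lowest folds, up to 10 parted promoters of each line pair and direction, lost and gained regions, up to 10 called regions and the 3 lowest p of each fit and direction, and members without a peak. ZNF257, ZNF726, ZNF486, ZNF8, ZNF625, ZNF540, ZNF71, ZNF765, the promoter of ZNF43 and the sequences shown were chosen after their values were seen. Alternatives tried were other scales, a −log10 q of at least 5, equal numbers of peaks (68670), windows of 500 bp and 2 kb, summits inside, no shared windows, another start site, a replicate block and leaving out each library.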

Additional observations from a re-analysis of the deposited data

Results flagged for a closer look

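By calls in the promoter window, ZNF69 moved in opposite directions with VTP50469 in 2 lines. In MOLM13 a peak was called in both treated libraries, with a mean fold of 4.25, and in neither control library, whereas in OCI-AML3 no peak was called in either treated library and both control libraries had one, with a mean fold of 5.09. No merged region of ZNF69 was among those lost in OCI-AML3, so the loss there holds for the window alone. The difference between the lines was not tested, and the ZNF69 peaks rested on 5 to 7 summit reads, close to the 4 reads of the smallest call.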

How the results depend on the processing

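Counts of zinc finger promoters that parted between 2 lines, both directions together, stayed within 1.5 times with other windows, thresholds, peak numbers and start sites and without each library. By direction, the 2 called in MOLM13 and not in OCI-AML3 became 4 without OCI-AML3 control 1 or without control 2, and the 6 called in OCI-AML3 and not in MV4-11 became 9 with equal numbers of peaks. Without each library in turn, 48 to 53 parted between MOLM13 and MV4-11, 41 to 47 between MOLM13 and OCI-AML3, 22 to 25 between MV4-11 and OCI-AML3, and 104 to 108 were called in all remaining libraries. The fit with uncalled promoters at the lowest rank, chosen after seeing the data as was the use of other start sites, called 60 promoters between MV4-11 and OCI-AML3, where 22 parted. Strength counts moved more. By the rank of recovered summit reads 22 zinc finger regions were called between MOLM13 and MV4-11 (13 by fold), 49 between MOLM13 and OCI-AML3 (9 by fold) and 54 between MV4-11 and OCI-AML3 (19 by fold). Calls over all regions rose as well on that scale. They were 2982 higher and 2662 lower of 37152 in the first pair (661 and 1289 of 37158 by fold). In the second pair they were 2615 and 2728 of 23940 (722 and 871 of 23946 by fold). In the third they were 3034 and 3332 of 27224 (1884 and 1629 of 27230 by fold). By the rank of the −log10 q 14 were called between MOLM13 and OCI-AML3, beside 1207 higher and 1473 lower of all 23946 regions. With a −log10 q of at least 5 there were 8 between MOLM13 and MV4-11, beside 280 higher and 680 lower of all 23803. Without each library in turn the counts were 8 to 12, 2 to 6 and 6 to 21 in the same order of pairs. In MOLM13 against OCI-AML3 no library could be left out without moving the count by 1.5 times or more, between MV4-11 and OCI-AML3 the count was 6 to 9 without each MV4-11 library in turn and 11 without OCI-AML3 control 2, and between MOLM13 and MV4-11 it was 8 without MV4-11 VTP50469 replicate 2. Libraries of the same number did not deviate together (correlations of 0.036, 0.020 and 0.0079 in MOLM13, MV4-11 and OCI-AML3), and with the replicate number as a block the counts were 12, 6 and 20, and 0 for each treatment comparison. For lost and gained regions, leaving out a library sets 1 library against both and so asks less, which gave 27 to 43 in MOLM13 (8 with all libraries), 37 to 73 in MV4-11 (9) and 34 to 40 in OCI-AML3 (7), and a −log10 q of at least 5 left 4 in OCI-AML3. That threshold also lowered the median body density to 0.665 peaks per 100 kb. The balance of directions turned for the regions of MV4-11 against OCI-AML3, with 12 higher and 7 lower by rank but 7 and 9 on the centred log2 fold. Over all regions this pair had 1884 higher and 1629 lower by rank, and 1772 and 2504 on the centred log2 fold. In MOLM13 the gained and lost shares passed those of all regions at a −log10 q of at least 5. The causes were not tested. Of the values of single genes under an alternative, 495 kept their status in the main setting, which for every treatment comparison was no call. In 22 the status weakened, by a lost call or by a promoter no longer called in all libraries of one line and none of the other. In 2 a call was gained.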
